A study of Rattus norvegicus with 6 samples.

Results

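Transforming growth factor beta (TGF-beta) signalling was followed in early granulation tissue through 10 listed genes: the ligands Tgfb1, Tgfb2 and Tgfb3, the latent binding proteins Ltbp1 and Ltbp2, the receptors Tgfbr1, Tgfbr2 and Tgfbr3, and the intracellular genes Smad3 and Smad7. Members were every probe of the deposited array table whose platform annotation gives one of these symbols. Of the 10 genes, 9 had a probe, each with 1 probe among 22517, and Tgfbr2 was not analysed here. Granulation tissue is the new tissue of a healing wound, and here it had grown subcutaneously in 10-week-old Sprague-Dawley rats, in cellulose whose surface carried hydroxyapatite, the mineral of bone. Implants of 3 rats were taken at 24 hours (day 1, rats 1, 2 and 3) and of 3 other rats at 72 hours (day 3, rats 4, 6 and 7), and total RNA of each implant was hybridised to its own Illumina bead array with 1 colour. Both groups carried the same implant, so the groups differ in time, and no uncoated or unwounded control entered the comparison.

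TGF-beta ligands are secreted in a latent form, held by their own propeptide, and latent binding proteins such as that of Ltbp1 tether this complex to the matrix until it is released. The freed ligand is bound by a pair of kinase receptors, encoded by Tgfbr2 and Tgfbr1, with the product of Tgfbr3 (betaglycan) as a coreceptor. The receptors phosphorylate the signalling protein Smad3, which enters the nucleus, while Smad7 is an inhibitor that the pathway itself induces. In wounds, the pathway is known for recruiting leukocytes and for driving fibroblasts to make matrix.

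At day 3 the signal of Ltbp2, Tgfb2 and Tgfb3 was higher than at day 1, and the signal of Tgfb1, Smad7 and Tgfbr1 was lower. Ltbp2 rose 2.81-fold and Tgfb1 fell 2.01-fold. These changes passed under all 15 alternatives of processing and left-out rats, while each of the other 4 calls was lost when certain rats were left out. Of the 8 members tested, 3 rose, 3 fell and 2, Ltbp1 and Tgfbr3, did not pass (limma with Benjamini-Hochberg adjustment over all tested probes, threshold 0.05). Over the whole array 31.9% of the 11591 tested probes passed, 16.7% as higher and 15.2% as lower. The days did not overlap for the same 6 members, as they did not for 49.4% of the tested probes. Smad3 was not tested, because its signal lay above the array median on only 1 of 6 arrays.

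Signals are normalised log2 intensities, a change is day 3 minus day 1, and a fold is 2 raised to the size of that change. An offset of 50 units was added before the logarithm, so the folds of dim probes are understated. Whether the folds of the brightest probes are also understated was not tested. The median of every array was 6.47 on this scale. Levels of different genes come from different probes and were not set against each other. In tissue RNA, fewer cells of a type and less RNA per cell cannot be told apart. The labels say that the 6 rats were different animals. The limma p-values set a change against the spread between these rats, moderated over all tested probes.

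The annotated start regions of 4 members are shown: Tgfb1 and Smad7, which both fell, and the binding proteins Ltbp1 and Ltbp2, which shared the direction of change without both passing. Each covers 250 bases before to 50 bases after the gene's start in RefSeq (rat assembly GRCr8), written 5′ to 3′ on the gene's strand. The positions are chr1:90324062-90324361 on the plus strand for Tgfb1, chr18:71263258-71263557 on the plus strand for Smad7, chr6:26177252-26177551 on the minus strand for Ltbp1 and chr6:110257249-110257548 on the minus strand for Ltbp2. Capitals mark matches to any of 6 searched motifs, on either strand.
Tgfb1: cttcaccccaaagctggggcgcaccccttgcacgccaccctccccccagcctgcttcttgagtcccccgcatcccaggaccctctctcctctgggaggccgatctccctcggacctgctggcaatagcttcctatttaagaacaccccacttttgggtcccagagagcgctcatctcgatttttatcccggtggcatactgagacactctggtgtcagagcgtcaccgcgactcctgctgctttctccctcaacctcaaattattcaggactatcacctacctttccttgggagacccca
Smad7: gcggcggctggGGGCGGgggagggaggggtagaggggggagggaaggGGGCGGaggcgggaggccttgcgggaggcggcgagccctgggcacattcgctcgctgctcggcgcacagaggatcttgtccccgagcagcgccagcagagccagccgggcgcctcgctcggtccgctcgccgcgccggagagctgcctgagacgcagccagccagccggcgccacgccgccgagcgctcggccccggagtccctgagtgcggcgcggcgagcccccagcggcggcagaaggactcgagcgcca
Ltbp1: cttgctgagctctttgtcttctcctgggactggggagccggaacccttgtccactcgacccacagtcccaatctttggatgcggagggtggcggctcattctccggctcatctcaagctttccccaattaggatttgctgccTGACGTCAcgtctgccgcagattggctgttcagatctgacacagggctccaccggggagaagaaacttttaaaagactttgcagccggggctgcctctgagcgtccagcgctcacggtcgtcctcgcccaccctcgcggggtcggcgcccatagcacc
Ltbp2: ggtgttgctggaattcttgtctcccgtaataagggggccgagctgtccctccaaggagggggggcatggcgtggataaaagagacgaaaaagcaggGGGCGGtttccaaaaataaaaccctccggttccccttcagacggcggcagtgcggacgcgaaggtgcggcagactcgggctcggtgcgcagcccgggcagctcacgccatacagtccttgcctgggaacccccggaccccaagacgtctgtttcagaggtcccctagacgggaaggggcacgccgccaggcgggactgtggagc
The motifs were the palindromic Smad binding element GTCTAGAC, the CAGA box CAGACA, the AP-1 site TGANTCA, the cyclic AMP response element TGACGTCA, the TATA box TATAAA and the GC box GGGCGG. In the 10 members' windows, neither the Smad binding element nor the CAGA box, AP-1 site or TATA box matched. These letters occur in 0.197%, 21.1%, 7.33% and 14.2% of all 33469 such windows. The response element matched once, in Ltbp1, and is found in 1.83% of all windows. The GC box matched in 6 of 10 members, against 33.1% of all windows, with 3 matches in Tgfbr1 and 2 in Smad7. The window of Smad7 has 77.7% G and C, that of Tgfb1 has 57.7% and that of Tgfb3 has 47.7%, where the median of all windows is 51.7%. A match describes letters and not a bound site. The lack of a match holds only for these windows of 250 bases before to 50 bases after the start, and sites elsewhere were not searched.

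**Figure D1:**
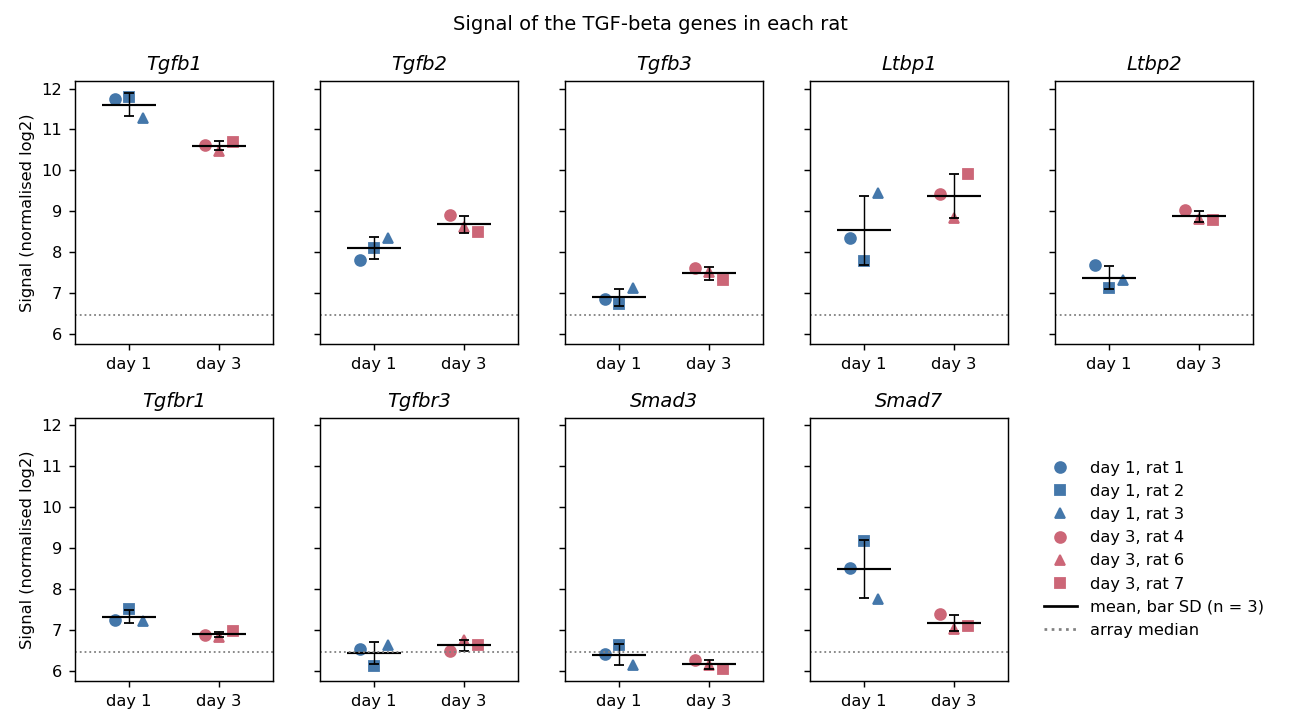
Normalised log2 signal of the 9 measured genes in each of the 6 rats, with 1 symbol per rat, the mean as a line and the SD as a bar (n = 3 a day); the dotted line is the array median of 6.47. The days are apart for Tgfb1, Tgfb2, Tgfb3, Ltbp2, Tgfbr1 and Smad7, and overlap for Ltbp1, Tgfbr3 and Smad3.

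The ligands moved in different directions. Tgfb1, the ligand released by platelets and made by many leukocytes, had signals of 11.75, 11.79 and 11.28 in day 1 rats 1, 2 and 3, and of 10.62, 10.48 and 10.69 in day 3 rats 4, 6 and 7. Every day 1 rat lay above every day 3 rat, with rat 3 the lowest of day 1. The mean went from 11.61 ± 0.28 to 10.60 ± 0.11 (SD, n = 3), a change of -1.01 ± 0.165 SE (95% interval -1.40 to -0.62, limma adjusted p = 0.00541).

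Tgfb2, an isoform with a well known part in development, had 7.82, 8.11 and 8.35 in day 1 rats 1, 2 and 3. In day 3 rats 4, 6 and 7 it had 8.92, 8.61 and 8.51. The days did not overlap, but the highest day 1 rat and the lowest day 3 rat lay close together. The change was 0.58 ± 0.178 SE (1.50-fold, limma adjusted p = 0.0445), and it missed the threshold in 5 of the 6 fits that left out 1 rat. The exception was the fit without day 1 rat 3. With no filter on dim probes its adjusted p was 0.0616.

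Tgfb3, the isoform linked in studies of skin wounds to healing with less scar, had 6.86, 6.73 and 7.13 in day 1 rats 1, 2 and 3. Its signals were 7.62, 7.52 and 7.32 in day 3 rats 4, 6 and 7. All day 3 rats were above all day 1 rats, and the day 1 signals were not far above the array median. The change was 0.58 ± 0.149 SE (1.49-fold, limma adjusted p = 0.0252). Leaving out day 1 rat 1, day 1 rat 2, day 3 rat 4 or day 3 rat 6 gave adjusted p of 0.0802, 0.0586, 0.0928 and 0.0821.

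Whether the ligands' changes differ was tested on the within-array difference of their signals. Tgfb2 minus Tgfb1 changed by 1.59 ± 0.334 SE and Tgfb3 minus Tgfb1 by 1.59 ± 0.311 SE, with no overlap of the days in either. The exact two-sided permutation test gave p = 0.1 for both, which is the smallest that 3 rats against 3 allow (adjusted p = 0.2 over 4 pairs). The difference between the changes of Tgfb3 and Tgfb2 was -0.01 ± 0.136 SE, with overlapping days (exact permutation p = 1).

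The latent binding proteins showed the largest rise and the largest spread. Ltbp2 encodes a matrix protein of elastic microfibrils that, unlike that of Ltbp1, does not bind latent TGF-beta. It had 7.69, 7.14 and 7.32 in day 1 rats 1, 2 and 3 and 9.04, 8.81 and 8.78 in day 3 rats 4, 6 and 7. The gap between the days was wider than the range within either. Its change was 1.49 ± 0.168 SE (95% interval 1.10 to 1.89, limma adjusted p = 0.00168), the largest of the 8 tested members. The 95% interval of the fall of Smad7, -2.11 to -0.52, covers a change of this size. Whether the sizes differ was not tested.

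Ltbp1, which covalently binds the latent complex, had 8.36, 7.79 and 9.46 in day 1 rats 1, 2 and 3. The day 3 rats 4, 6 and 7 had 9.42, 8.83 and 9.90. Day 1 rat 3 lay above 2 of the 3 day 3 rats. The change was 0.85 ± 0.447 SE (95% interval -0.21 to 1.91, limma adjusted p = 0.189), so a rise of several-fold and no rise both lie within its interval. With day 1 rat 3 left out the change was 1.31 (adjusted p = 0.0154), and with day 3 rat 6 left out as well it was 1.59 (adjusted p = 0.00848). With day 1 rat 2 left out it was 0.48 (adjusted p = 0.454). Array weights also brought it past the threshold, with a change of 1.09 and adjusted p = 0.00806. The difference between the changes of Ltbp2 and Ltbp1 was 0.64 ± 0.588 SE, and its days overlapped (exact permutation p = 0.4, adjusted p = 0.533).

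Day 1 rat 3 and day 3 rat 6 were the arrays with high signal of skeletal muscle genes. The summed intensity of 17 muscle markers was 41060 and 31780 on these arrays, against 2222 to 4199 on the others. On day 1 rat 3 the summed intensity of 13 fibroblast markers was also higher than on the other day 1 arrays, at 64370 against 28120 and 27290. None of the 13 fibroblast markers lay at or below the array median throughout a day. Their part in the Ltbp1 signal of this rat was not tested.

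Of the receptors, Tgfbr1 lay above the array median on all 6 arrays, and Tgfbr3 lay near it. Tgfbr1, the kinase that phosphorylates Smad3, had 7.23, 7.50 and 7.22 in day 1 rats 1, 2 and 3, and 6.88, 6.84 and 6.96 in day 3 rats 4, 6 and 7. The days did not overlap, with rat 2 the highest. It fell by 0.42 on the log2 scale (SE 0.123, 1.34-fold, limma adjusted p = 0.0381), the smallest change among those that passed. The call was lost in 5 of the 6 fits that left out 1 rat, the exception being the one without day 1 rat 3. It was also lost with cyclic loess normalisation, with a change of -0.34 and adjusted p = 0.0522.

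Tgfbr3, the coreceptor that presents Tgfb2 in particular, had 6.54, 6.12 and 6.62 in day 1 rats 1, 2 and 3. The day 3 rats 4, 6 and 7 had 6.50, 6.75 and 6.63. These values straddle the array median, and the days overlapped. The change was 0.20 ± 0.163 SE (95% interval -0.19 to 0.59, limma adjusted p = 0.384).

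The intracellular genes were the inhibitor Smad7 and the transducer Smad3. Smad7 had 8.52, 9.18 and 7.76 in day 1 rats 1, 2 and 3, and 7.39, 7.02 and 7.10 in day 3 rats 4, 6 and 7. The day 1 rats spread widely and yet all lay above the day 3 rats. The mean went from 8.49 ± 0.71 to 7.17 ± 0.19 (SD, n = 3), a change of -1.31 ± 0.335 SE (2.49-fold, limma adjusted p = 0.0246). Leaving out rat 2 gave a change of -0.97 and leaving out rat 3 one of -1.68, and both passed. Leaving out day 1 rat 1 or day 3 rats 4, 6 or 7 gave adjusted p of 0.0786, 0.0509, 0.085 and 0.0818.

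Smad3 had 6.41, 6.64 and 6.14 in day 1 rats 1, 2 and 3. It had 6.27, 6.14 and 6.06 in day 3 rats 4, 6 and 7. Only day 1 rat 2 lay above the array median, so it did not pass the filter. In the fit of all probes with no filter its change was -0.24 (limma adjusted p = 0.334).

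**Figure D2:**
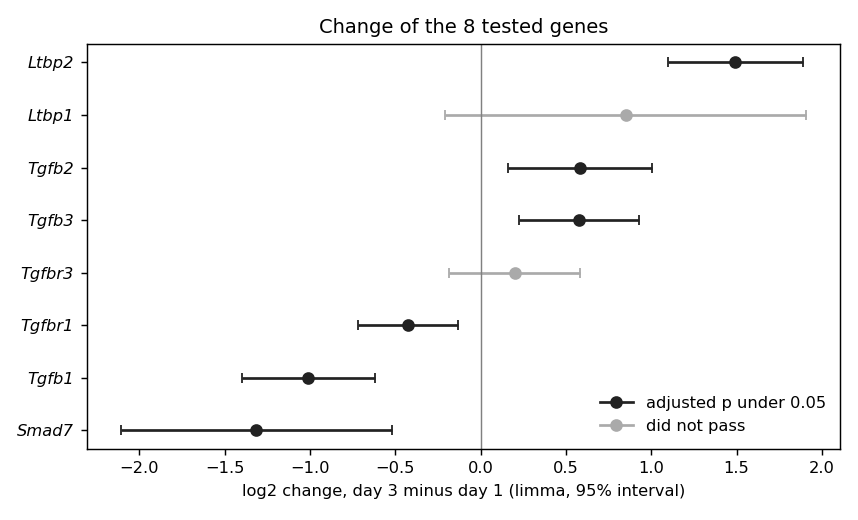
Log2 change, day 3 minus day 1, of the 8 tested genes from the limma fit, with 95% intervals; dark points passed the adjusted threshold of 0.05 and grey points did not. Changes run from -1.31 for Smad7 to 1.49 for Ltbp2, and the interval of Ltbp1 is the widest.

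The number of members that passed depended on the rats included. It was 6 with all rats, 7 without day 1 rat 3, and 6 when both muscle-rich arrays were left out. These were not the same 6, since Ltbp1 passed there (adjusted p = 0.00848) and Tgfbr1 did not (adjusted p = 0.0775). Leaving out day 1 rat 1, day 3 rat 4 or day 3 rat 6 gave 2, and leaving out day 1 rat 2 or day 3 rat 7 gave 3. Over the whole array 3694 probes passed, and the fits that left out day 1 rat 1 or day 3 rat 4, 6 or 7 had 2338, 2427, 2016 and 2093. The count over the whole array thus also depended on the rats included, and is not particular to the members. No tested member changed its direction under any of the alternatives. Over 15 alternatives the change of Ltbp2 lay between 1.28 and 1.72, with adjusted p of at most 0.0112. Tgfb1 lay between -1.17 and -0.92, with adjusted p of at most 0.0279.

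**Figure D3:**
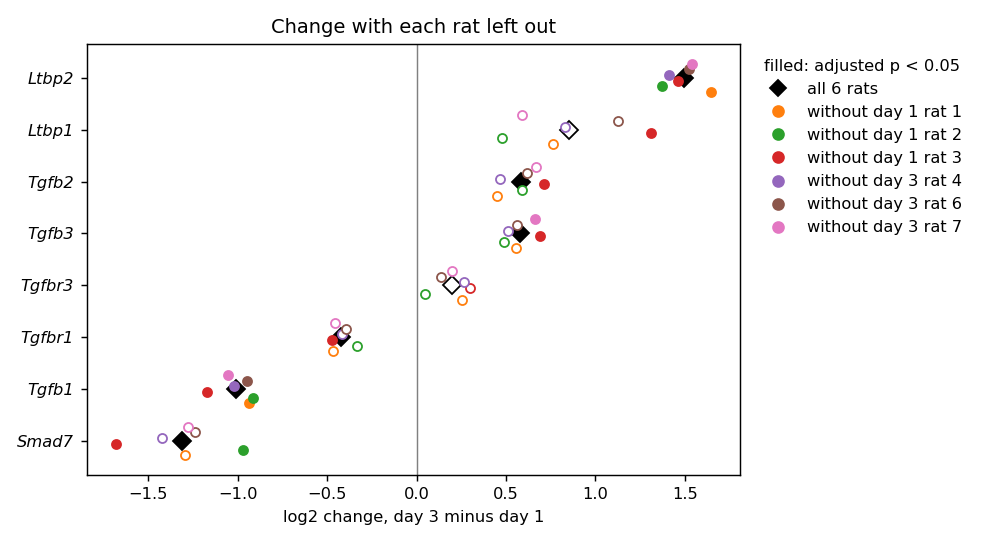
Log2 change, day 3 minus day 1, of the 8 tested genes with all 6 rats (diamonds) and with each rat left out (circles); filled symbols passed the adjusted threshold of 0.05. Ltbp2 and Tgfb1 stay filled in every fit shown, and Ltbp1 is filled only without day 1 rat 3.

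Marker genes of several cell types moved between the days along with the members. Of 12 tested neutrophil markers 9 fell and 1 rose (83.3%, against 31.9% of all tested probes). The summed intensity of the 16 measured went from 61060 to 73600 at day 1 to 33330 to 38470 at day 3. The neutrophil receptor gene Il1r2 had 14.74 ± 0.39 at day 1 and 12.90 ± 0.41 at day 3 (SD, n = 3), the same direction as Tgfb1, Smad7 and Tgfbr1 (limma adjusted p = 0.00369). Lcn2, a secreted iron-sequestering protein of neutrophil granules that other cells also make, was the marker that rose, from 12.94 ± 0.61 to 14.31 ± 0.44 (adjusted p = 0.023). Its call was lost without day 1 rat 1 or 2 and without day 3 rat 6 or 7 (adjusted p = 0.0659 to 0.0833). Of the 16, Ltf, Ngp, S100a9 and Ctsg lay at or below the array median on all arrays. Of 4 tested platelet markers 1, Ppbp, fell and none rose (25%, against 31.9% of all tested probes). The shares of the T, B and NK cell, smooth muscle and pericyte, and skeletal muscle markers were 22.2%, 20% and 6.67%. Ppbp exceeded the array median on day 1 arrays only, so it entered the test through them. The sum of the 7 measured platelet markers was 18850 to 30980 at day 1 and 12390 to 16820 at day 3. Of these 7, Gp9 and Treml1 lay at or below the median on all arrays. The platelet chemokine gene Pf4 had 14.34 ± 0.41 at day 1 and 13.65 ± 0.26 at day 3 (SD, n = 3; limma adjusted p = 0.0619), and its change passed without day 1 rat 3 (-0.86, adjusted p = 0.0179). Leaving out day 1 rat 2 instead gave -0.46 (adjusted p = 0.121). Selp, an adhesion receptor of platelets and endothelium, had 9.85 ± 0.74 and 9.93 ± 0.04 (adjusted p = 0.875), and it passed without day 1 rat 3, with a change of 0.50 (adjusted p = 0.0207).

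The fibroblast markers moved the same way as Ltbp2, Tgfb2 and Tgfb3. Of 13 tested, 12 rose and 1 fell (100%, against 31.9% of all tested probes). Their sum went from 27290 to 64370 at day 1 to 137700 to 154500 at day 3. The collagen gene Col1a2 went from 13.57 ± 0.76 to 15.06 ± 0.02 and Dcn from 13.39 ± 1.09 to 15.18 ± 0.04 (SD, n = 3; limma adjusted p = 0.0179 and 0.0306). The call of Col1a2 was lost without day 1 rat 1 and without day 3 rat 4, 6 or 7 (adjusted p = 0.0529 to 0.0675). Of 8 tested endothelial markers 7 rose and none fell (87.5%, against 31.9% of all tested probes). The sums over the 10 measured genes were 5850 to 14820 at day 1 and 24540 to 30420 at day 3. Plvap, of the diaphragms of capillary pores, went from 12.00 ± 1.03 to 13.73 ± 0.20 and the sialomucin gene Emcn from 10.10 ± 1.03 to 11.98 ± 0.10 (limma adjusted p = 0.0301 and 0.0217). Both calls were lost without day 3 rat 4, 6 or 7 (adjusted p = 0.0604 to 0.1), and that of Plvap also without day 1 rat 1 (adjusted p = 0.0708) and with no filter (adjusted p = 0.054). Macrophage markers moved both ways, with 6 of 10 higher and 2 lower (80%, against 31.9% of all tested probes). The lipid carrier gene Apoe rose from 12.52 ± 1.27 to 14.49 ± 0.30 (limma adjusted p = 0.0382), and the lipopolysaccharide coreceptor gene Cd14 fell from 13.78 ± 0.23 to 12.00 ± 0.35 (adjusted p = 0.00187). The call of Apoe was lost without day 3 rat 4, 6 or 7 (adjusted p = 0.0753 to 0.12), when both muscle-rich arrays were left out (0.1), with no filter (0.0695) and with array weights (change 0.94, 0.0664). The part of any of these cell types in the members' changes was not tested.

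Other genes of the pathway were read from 7 lists. Of their 89 tested genes, 45 passed, 32 as higher and 13 as lower, against 31.9% of all tested probes. The count was 29 without day 3 rat 6 and 53 when both muscle-rich arrays were left out. Of the 45, 3 (Fbn2, A2m and Cdh11) exceeded the array median on day 3 arrays only, and entered the test through them. Dcn and Lum among the matrix binders, and Col1a1, Col1a2, Col3a1 and Fap among the targets, are also fibroblast markers here, and Tagln of the targets is a smooth muscle marker, so these lists and the marker lists are not separate evidence. The median change over all tested probes was -0.05.

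Genes that hold or release the latent ligand moved both ways: of 14 tested 8 rose and 3 fell (78.6%, against 31.9% of all tested probes). The median change was 0.70. Fbn2, a fibrillin of matrix microfibrils, did not exceed the array median in any day 1 rat and was at least 10.9-fold higher at day 3; it entered the test only through its day 3 signals. Itgb5, an integrin chain, rose 7.19-fold from 8.13 ± 0.47 to 10.97 ± 0.19 (SD, n = 3). Emilin1, a microfibril protein that limits processing of the Tgfb1 precursor, rose 6.27-fold. Fbn1 rose by 2.64 and Ltbp4, the fourth binding protein of the family, by 1.48. The genes that fell were Mmp9, a gelatinase also held by neutrophils, with -2.41, the transglutaminase Tgm2 with -1.21, and Nrros, which in mice tethers latent Tgfb1 on myeloid cells, with -0.95. The calls of Tgm2 and Nrros were each lost in 4 of the 6 fits that left out 1 rat, with adjusted p of 0.0606 to 0.085 and of 0.0645 to 0.0926. The count of 11 that passed was 7 without day 1 rat 1, day 3 rat 4 or day 3 rat 6.

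Of 8 tested genes listed as matrix binders of the ligands, 6 rose, A2m among them, and no gene was lower (75%, against 31.9% of all tested probes). Their median change was 1.50, and whether each binds the ligands was not tested. Lum rose 26.6-fold, Aspn 19.3-fold and Dcn 3.45-fold; the proteoglycan decorin, encoded by Dcn, sequesters free TGF-beta. Dcn had signals of 12.87, 12.66 and 14.65 in day 1 rats 1, 2 and 3, so the highest day 1 rat was the same as for Ltbp1. In day 3 rats 4, 6 and 7 Dcn had 15.155, 15.145 and 15.227, brighter than Lum and Aspn. Whether its fold is understated at such signals was not tested. Leaving out any rat but day 1 rat 3 gave Dcn adjusted p of 0.0785 to 0.104. Fn1 and Tgfbi, which is induced by TGF-beta in many cells, had changes of -0.27 and -0.22 (limma adjusted p = 0.0973 and 0.406). Fn1 passed as lower with cyclic loess (-0.42, limma adjusted p = 0.0397) and with array weights (-0.25, 0.0344). Tgfbi passed as lower with array weights (-0.56, limma adjusted p = 0.00911), and its change was -0.04 without day 1 rat 1 (0.866).

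The median change of 11 coreceptors and receptor partners was 0.23. Of these, 2 rose and no gene fell (18.2%, against 31.9% of all tested probes). They were Bambi, a decoy receptor without a kinase domain, with a change of 0.88 (limma adjusted p = 0.00486), and Nrp1, a coreceptor of several growth factors, with 1.46 (adjusted p = 0.0279). The call of Nrp1 was lost without day 3 rat 4, 6 or 7 (adjusted p = 0.0653, 0.0848 and 0.0917) and when both muscle-rich arrays were left out (adjusted p = 0.0564). Its change was 0.91 with array weights. The list's count was 4 without day 1 rat 3 and 1 without day 3 rat 4, 6 or 7.

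Of 14 other Smads and Smad regulators, 1 rose and 4 fell, and the median change was 0.01. The share that passed was 35.7%, near the 31.9% of all tested probes. Smad1, a transducer best known from bone morphogenetic protein signalling, rose 2.42-fold, from 7.93 ± 0.34 to 9.21 ± 0.26 (SD, n = 3; limma adjusted p = 0.00562). Smad2, the close relative of Smad3, had a change of -0.05 (adjusted p = 0.839), and Smad4, the partner of all signalling Smads, had 0.09 (adjusted p = 0.699). The falls were those of the corepressor Tgif1 with -1.01, the deubiquitinase Usp15 with -0.70, the ubiquitin ligase Rnf111 with -0.69 and the phosphatase Ppm1a with -0.66. With 1 rat left out, the call of Rnf111 was lost in 4 of 6 fits (adjusted p = 0.0872 to 0.117), that of Ppm1a without day 3 rat 6 or 7 (0.0606 and 0.0532) and that of Usp15 without day 3 rat 6 (0.0546). The other inhibitory Smad, Smad6, had a change of 0.31 (adjusted p = 0.236), where Smad7 fell; the difference between them was not tested. Without day 1 rat 3 Smad6 passed, with a change of 0.48 (adjusted p = 0.0471), and the list's count went from 5 to 8. The change of Smad6 was 0.13 without day 1 rat 2 (adjusted p = 0.536). The count was 2 without day 3 rat 6.

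Of 11 kinases, adaptors and small GTPases of the branches outside the Smads, 1 rose and no gene fell. This is 9.09%, against 31.9% of all tested probes, and their median change was -0.14. Map2k6, a kinase that activates p38, rose 3.30-fold (limma adjusted p = 0.00228). Traf6 and Tab2, which link the receptors to the kinase encoded by Map3k7, had changes of -0.72 and -0.47 (adjusted p = 0.0879 and 0.0709). Both passed without day 1 rat 3, with changes of -0.99 and -0.62 (adjusted p = 0.0105 and 0.0136). Leaving out day 1 rat 2 gave -0.42 and -0.35 (adjusted p = 0.153 and 0.162). The list's count was 3 without day 1 rat 3, and also 3 when both muscle-rich arrays were left out. Of 8 related ligands of the superfamily 0 passed limma at the adjusted threshold, and 1, Gdf15, had an unadjusted p under 0.05. Gdf15 had a change of -0.75 (limma adjusted p = 0.0943). It passed without day 3 rat 4, with a change of -1.11 (adjusted p = 0.00661). The inhibin subunit Inha, with a change of -0.64 over all rats (adjusted p = 0.193), passed without day 1 rat 3, where its change was -0.95 (adjusted p = 0.0322). Without day 1 rat 2 the change of Inha was -0.23 (adjusted p = 0.349).

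Genes described as transcriptional targets of the pathway moved both ways. The list does not separate genes that the pathway induces from genes that it represses. Of 23 tested, 14 rose and 6 fell (87%, against 31.9% of all tested probes), and the median change was 1.35. The rises were led by Cthrc1, Col1a1 and Col5a1, with changes of 5.94, 5.15 and 4.52, and included Ctgf, a matricellular protein, with 1.42 and Snai1, a transcription factor, with 1.52. The 6 that fell were the cell cycle inhibitor Cdkn1a with -1.34, Junb with -1.32, Id2 with -1.29, Klf10 with -1.13, Id1 with -1.09 and Bhlhe40 with -1.01. Apart from Cdkn1a these encode transcription regulators, several of which respond early to many other stimuli. Snai1 and Id3, which rose, also encode transcription regulators. Smad7, itself an early target, moved with them in direction at -1.31. Id3 went the other way from Id1 and Id2, with a change of 0.36 (limma adjusted p = 0.0498), but its call was lost in each fit that left out 1 rat (adjusted p = 0.0563 to 0.154). The call of Klf10 was lost without day 3 rat 6 or 7 (0.0514 and 0.0536), and that of Bhlhe40 in every fit that left out 1 rat except the one without day 1 rat 3 or day 3 rat 4. The list's count of 20 was 13 without day 3 rat 6.

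**Figure D4:**
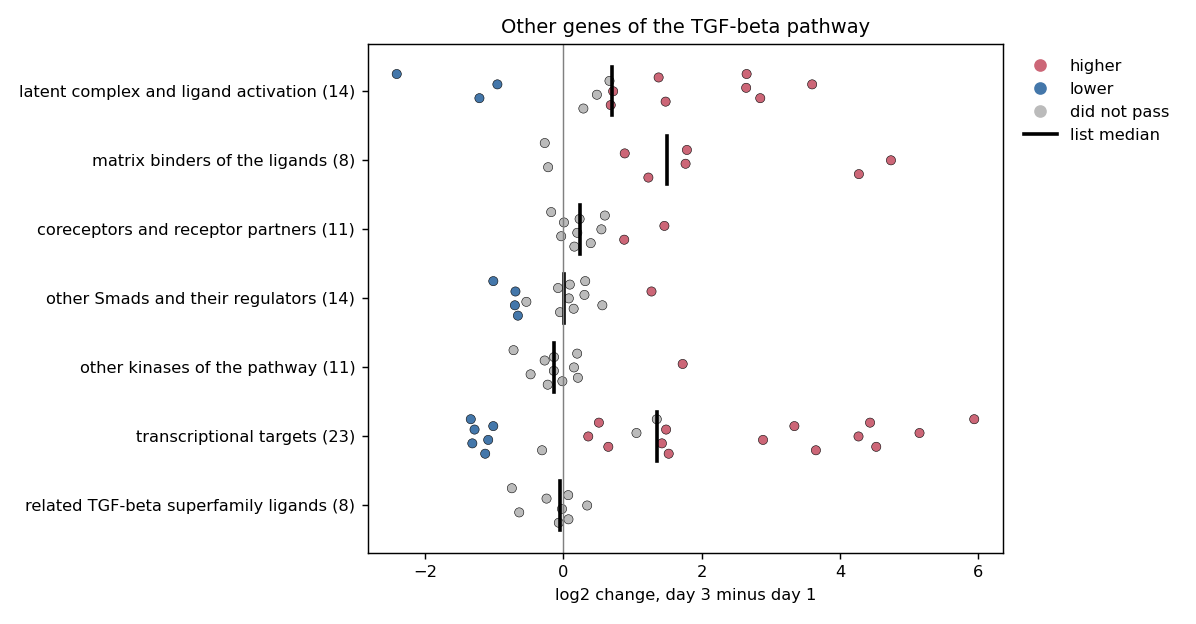
Log2 change, day 3 minus day 1, of the tested genes in 7 lists of other TGF-beta pathway genes (number tested in brackets), with 1 point per gene, coloured by whether it passed as higher or lower, and the list median as a bar. Matrix binders and targets have medians of 1.50 and 1.35, and the kinases and related ligands have medians of -0.14 and -0.04.

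The genes whose profiles over the 6 arrays were most like those of the members were found by the root mean square difference of mean-centred log2 signals. For Tgfb1 they were Swt1, Ppm1n and Prr13, with differences of 0.0365, 0.0597 and 0.0646. For Smad7 they were Serpinf2 (0.0601), Grk2 (0.0941) and Sfxn5 (0.0964), all highest in day 1 rat 2 as Smad7 was. For Ltbp2 they were Mybl2 (0.0958), Agrn (0.0958) and Cndp1 (0.108), and for Tgfb3 they were Rfc5 (0.0545), Npat (0.0603) and Slc25a29 (0.0614). Tgfb2 was nearest to Twf1 (0.104), Marchf5 (0.108) and Foxp1 (0.113), and Tgfbr1 to Rab43 (0.0339), Naa35 (0.0346) and Pggt1b (0.0461). Tgfbr3 was nearest to Mzt2b (0.0358), Nenf (0.0495) and Armc1 (0.051). Ltbp1 had no profile as close, with Rfc2 (0.232), Enpp2 (0.267) and Prps2 (0.283) as its nearest. The rat with the highest day 1 signal was rat 3 for Ltbp1 and for each of these 3 genes. The measure depends on only 6 arrays and on the size of a gene's change, and dim genes of small change come out close to each other.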

How the data were processed

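Total RNA of 6 implants was amplified, labelled with biotin and hybridised to Illumina bead arrays, per the labels. The deposited values are linear intensity values, which the authors had already quantile normalized: the sorted columns differ by at most 0.0399%. Limma is named in the submitters' processing notes; whether the authors corrected the background is unknown. A second deposited table has 12 columns of per-sample values whose headers match no label, so it was not used, nor were its detection p-values.

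Background was corrected with normexp (offset 50) and log2 taken, in limma 3.58.1 under R 4.3.3. Probes above the array median on at least 3 of 6 arrays (11591) entered lmFit and eBayes, and two-sided p-values were adjusted by Benjamini-Hochberg over all of them. Where a probe exceeded the median on no array of 1 day, its fold is a bound: in that day, each array counted with its median or the probe's signal, whichever was higher. Fits were tested on simulated data. The number of arrays limits the precision.

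Probe names are those of the platform annotation. Members, gene lists and the left-out muscle-rich arrays were chosen with earlier results of these data known. The rule for named genes takes all members, per pathway list the 3 called genes of largest change (or the smallest p where none was called), the 2 brightest markers of lists that moved and the 3 nearest profiles per tested member; other genes are examples chosen after their values were seen. The brightest tested probe stands for a gene in lists.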

Additional observations from a re-analysis of the deposited data

How the results depend on the processing

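Under 15 alternatives (no background correction, offset 16, no filter, a filter on all 6 arrays, cyclic loess, weighted arrays, robust fitting with an intensity trend, an adjusted p under 0.01, each rat left out, and both muscle-rich arrays left out) no tested member reversed. Smad2, Smad4 and the marker Selp, with changes near 0, did: Smad2 had 0.023 with cyclic loess, 0.054 without both muscle-rich arrays and -0.20 to 0.059 with 1 rat left out, Smad4 had -0.028 to 0.24 and Selp -0.19 to 0.50 with 1 rat left out. The count of members that passed was 2 at an adjusted p under 0.01 and 2 to 7 with 1 rat left out. The count of probes on the whole array was 6123 with weighted arrays, 1593 at an adjusted p under 0.01, and 2016 to 4902 with 1 rat left out. The count of pathway list genes was 29 to 56 with 1 rat left out, and 43 with no filter. Tgfb2 and Tgfbr1 each missed the threshold in 8 of 15 alternatives, and Tgfb3 and Smad7 in 5 each. Leaving out a rat also lowers the number of samples in the fit; other causes were not tested. No paired analysis was possible because the rats of the days carry different numbers. Depth has no counterpart here: the signals of Smad3 and Tgfbr3 lay near the array median.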
